A study of Mus musculus with 18 samples.

Results

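Expression of 10 genes for secreted Wnt ligands (Wnt2, Wnt2b, Wnt4, Wnt5a, Wnt5b, Wnt9a, Wnt10a, Wnt10b, Wnt11 and Wnt16) was examined in mouse knee cartilage after rupture of the anterior cruciate ligament (ACL). The genes were taken by name from the 49184 genes to which the measured transcripts could be assigned, and all 10 passed the filter on low counts. RNA depleted of ribosomal RNA had been sequenced in 18 libraries: 6 from naïve mice, 3 from injured and 3 from contralateral knees at day 1 after rupture, and 3 from injured and 3 from contralateral knees at day 7. All mice were male C57Bl/6J animals, 12 weeks old when the experiment began. In the injured groups a single load of 12 N ruptured the ACL of the right knee, the left knee of the same animals served as the contralateral control, and loaded mice received isoflurane and buprenorphine. Contralateral knees therefore came from animals that had been injured on the other side, whereas naïve mice had not been loaded, and their samples carry a day 7 label. Tissue was a pool of cartilage caps lifted from the femoral condyle at the tidemark, from 4 mice per sample by the series text and from 2 mice at day 1 and 4 at day 7 by the scheme of the study. By that scheme the naïve libraries came from 6 mice with left and right knees pooled apart, so that they share animals, and the labels do not tie a library to its mice. P-values therefore measure the spread between these pools.

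The shallowest library held 16074762 estimated counts and the deepest 41794005 (median over all 18, 25465706). A floor of 3 estimated counts corresponded to between 0.0701 and 0.234 CPM (counts scaled to library size by TMM), depending on the library. Day 7 contralateral library 13 stood apart from the rest. Its 10 leading genes held 42.5% of its counts, where no other library exceeded 29.8%, and the comparisons with day 7 contralateral knees are also given without it. Col2a1 and Acan, the defining genes of chondrocytes, were expressed in every group, and the summed level of 8 chondrocyte markers ranged from 3137 to 12307 CPM. Markers of other tissues were also abundant. Across the naïve libraries, Col1a1, a collagen of bone and fibrous tissue, averaged 12425 CPM beside 3240 CPM for Col2a1, and the erythroid markers summed to between 28073 and 38238 CPM.

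Wnt ligands are lipid-modified secreted proteins that act over short distances through Frizzled receptors. With Lrp5 or Lrp6 as co-receptor they stabilise beta-catenin, which enters the nucleus and drives transcription with TCF/LEF factors, and through Ror2, Ryk or the planar cell polarity proteins they act without beta-catenin. In cartilage and bone, Wnt signals shape the growth plate, the joint interzone and bone formation. Wnt4, Wnt9a and Wnt16 are known from developing joints, and Wnt5a and Wnt5b from the control of chondrocyte maturation.

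Promoter sequence of the ligands whose expression changed is shown so that the letters upstream of each start can be read beside the values. RefSeq (GRCm38.p6) gave promoters for 8 of the 10 ligands, and Wnt5a and Wnt10a had no entry in the table used. The 250 bases before the start are printed on the strand of the gene, for Wnt16 from chr6:22287977-22288226 (plus strand), for Wnt9a from chr11:59306680-59306929 (plus strand) and for the most upstream start of Wnt5b from chr6:119544348-119544597 (minus strand). Capitals mark a match to AP-1 (TGACTCA or its reverse complement TGAGTCA).
Wnt16: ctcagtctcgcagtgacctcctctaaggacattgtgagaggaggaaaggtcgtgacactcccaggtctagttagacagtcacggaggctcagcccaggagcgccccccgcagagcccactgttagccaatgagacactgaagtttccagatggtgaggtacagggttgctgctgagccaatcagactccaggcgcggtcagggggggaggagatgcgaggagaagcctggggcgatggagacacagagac
Wnt9a: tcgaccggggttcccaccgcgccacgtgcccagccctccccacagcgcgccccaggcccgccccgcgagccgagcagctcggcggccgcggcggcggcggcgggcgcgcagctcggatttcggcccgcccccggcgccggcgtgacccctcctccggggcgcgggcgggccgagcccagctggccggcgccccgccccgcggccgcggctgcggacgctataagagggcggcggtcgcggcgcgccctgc
Wnt5b: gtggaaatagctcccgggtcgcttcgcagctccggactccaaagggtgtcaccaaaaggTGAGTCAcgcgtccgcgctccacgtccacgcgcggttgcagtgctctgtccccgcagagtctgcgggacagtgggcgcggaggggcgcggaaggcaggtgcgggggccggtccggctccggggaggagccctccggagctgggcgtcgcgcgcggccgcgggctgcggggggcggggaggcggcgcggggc

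The content of G and C in these windows was 59.2% for Wnt16, 84.4% for Wnt9a and 75.2% for Wnt5b, against a median of 52.4% over 32851 mouse promoters. Letters of a TCF/LEF site, namely CTTTGAT and likewise its common form CTTTGAA, were searched on both strands. The same was done for a TATA box (TATAAA) and the AP-1 site. The shares of all promoters holding them were 7.48% for TCF/LEF, 12.4% for TATA and 4.46% for AP-1. None of these motifs contains another. Wnt16 and Wnt9a held none of them in this window. The upstream start of Wnt5b held 1 AP-1 match, and the most downstream of the 3 listed starts of the same gene held 1 TCF/LEF match within chr6:119449387-119449636 (minus strand). Wnt11, whose expression did not pass the test below, held 1 TCF/LEF match and 1 TATA box in the window chr7:98834862-98835111 (plus strand).

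Of the 10 ligands, 4 were higher in day 7 injured than in naïve cartilage and none was lower (FDR at most 0.05 and at least 1.5-fold, edgeR's quasi-likelihood test). The background of this comparison was 10.4% of 21129 tested genes higher and 6.11% lower, as 2207 and 1291 genes. With upper-quartile in place of TMM scaling, which shifted the all-gene median on the log2 scale from -0.04 to -0.21, the split was 1608 higher and 2739 lower and the same 4 ligands rose. Wnt16, Wnt9a, Wnt5a and Wnt5b were the ligands that rose. The median log2 fold change of the 10 ligands was 0.45, beside -0.04 over all genes tested, and 9 of the 10 values lay above 0. Each of the 4 also had all 3 injured libraries above all 6 naïve libraries in CPM, which on the TPM scale held for Wnt16 and Wnt9a and not for Wnt5a and Wnt5b. In CPM, 17.4% of all tested genes showed this arrangement in this direction and 10.8% in the other. In bulk tissue, a change in the number of cells of a type and a change in RNA per cell cannot be told apart.

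Wnt16, a ligand known from joints and cortical bone, lies at chr6:22288227-22298522 on the plus strand of GRCm38. It was measured at 8.81, 7.86 and 7.08 CPM in the day 7 injured libraries. Naïve libraries gave 0.988, 0.861, 1.28, 1.79, 0.995 and 2.1 CPM. At day 7 the contralateral libraries gave 1.4, 0.802 and 1.05 CPM. The lowest injured library was thus far above the highest library of either control group. At day 1, values were 1.03, 0.985 and 1.74 CPM in injured and 1.5, 1.14 and 1.05 CPM in contralateral knees, within the naïve range. Day 7 injured cartilage held 5.87-fold more Wnt16 than naïve cartilage (log2 fold change 2.55, SE 0.25, FDR = 1.797e-06) and 7.45-fold more than contralateral cartilage (log2 fold change 2.90, SE 0.33, FDR = 7.185e-06; without library 13, 3.10, FDR = 2.195e-05). Behind these values stood 124 to 194 estimated counts per injured library and 13 to 59 per naïve library.

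Wnt9a, a ligand of the joint interzone, lies at chr11:59306928-59333552 on the plus strand. Its level was 13.4, 13.1 and 14.7 CPM in the day 7 injured libraries. The naïve libraries gave 2.91, 3.25, 3.08, 4.52, 2.27 and 1.82 CPM, and the day 7 contralateral libraries gave 4.36, 2.94 and 2.84 CPM. No injured library at day 7 came near the range of the controls. Wnt9a was 4.67-fold higher than in naïve cartilage (log2 fold change 2.22, SE 0.28, FDR = 2.261e-05) and 4.11-fold higher than in contralateral cartilage (log2 fold change 2.04, SE 0.34, FDR = 0.0003708; without library 13, 2.27, FDR = 0.0005636). At day 1 the injured libraries were uneven, with 4.39, 1.68 and 5.18 CPM against 2.51, 1.91 and 1.89 CPM in contralateral knees, and their ranges overlapped.

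Wnt5a, the best-known ligand of the branches without beta-catenin, lies at chr14:28504750-28527448 on the plus strand. The 3 injured libraries at day 7 held 13.8, 14.8 and 18.8 CPM. Naïve cartilage held 7.36, 8.15, 8.74, 8.51, 6.76 and 7.23 CPM, and day 7 contralateral cartilage 7.40, 6.06 and 7.43 CPM. All injured CPM values at day 7 lay above all control values, and day 1 injured libraries (9.08, 6.68 and 10.4 CPM) overlapped with them. On the TPM scale the day 7 injured (0.991 to 1.84 TPM) and naïve libraries (0.735 to 1.51 TPM) overlapped. The rise in the count test was 2.05-fold over naïve (log2 fold change 1.04, SE 0.15, FDR = 7.934e-05) and 2.27-fold over contralateral cartilage (log2 fold change 1.18, SE 0.18, FDR = 0.0001478; without library 13, 1.25, FDR = 0.0003669). Exons of Wnt5a share 358 of 7823 bases with the opposite-strand gene Gm2670. The strand setting of the counting is not given in the sources used here, so reads of that stretch cannot be assigned with certainty.

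Wnt5b, the close relative of Wnt5a in the control of chondrocyte maturation, lies at chr6:119432531-119544347 on the minus strand. It held 7.90, 7.92 and 7.59 CPM in the day 7 injured libraries and 3.75, 5.50, 4.80, 3.89, 4.10 and 5.81 CPM in naïve libraries. Day 7 contralateral libraries were uneven, at 11.2 CPM in library 13, 4.90 in library 14 and 5.95 in library 15. On the TPM scale injured (1.3 to 1.63 TPM) and naïve libraries (0.875 to 1.42 TPM) overlapped. There contralateral library 13 (1.05 TPM) was the lowest of its group, below library 14 (1.45 TPM) and library 15 (1.49 TPM). In the count test expression was 1.70-fold higher in injured than in naïve cartilage (log2 fold change 0.77, SE 0.14, FDR = 0.0006844). Against the contralateral knees the log2 fold change was 0.11 (SE 0.24, FDR = 0.8132), and without library 13 it was 0.54 (FDR = 0.05005), which also missed the threshold. Library 13 gave the highest summed levels of chondrocyte (12307 CPM), fibroblast (56453 CPM) and erythroid markers (56788 CPM) among the contralateral libraries. Most of the first 2 sums came from single genes. Across the day 7 contralateral libraries Col2a1 averaged 5438 CPM beside a chondrocyte sum of 6816 CPM. Col1a1 averaged 29822 CPM beside a fibroblast sum of 32200 CPM. Library 13 was also highest of its group for macrophage and endothelial markers, and lowest for osteoblast and osteocyte and skeletal muscle markers. The part of these markers in the Wnt5b value of library 13 was not tested.

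**Figure D1:**
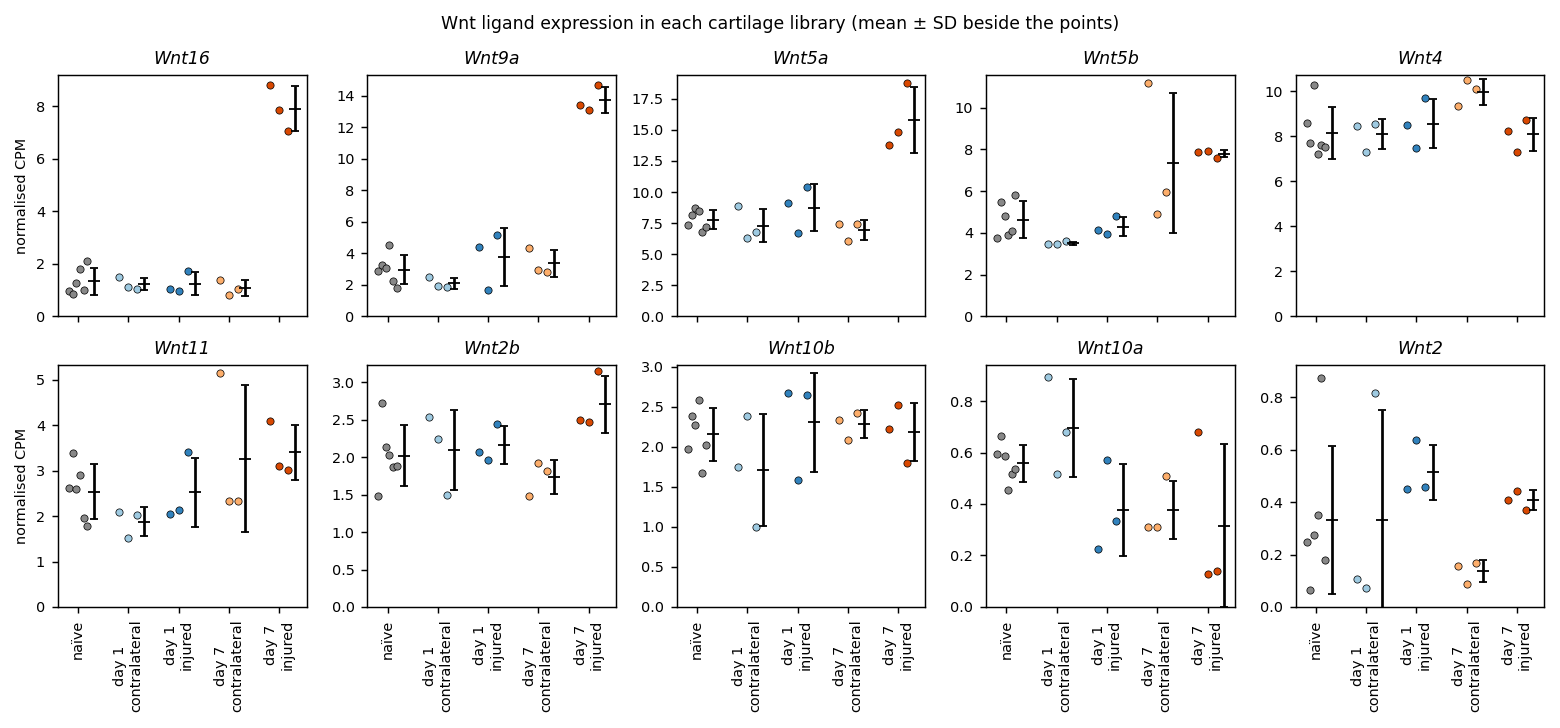
Normalised CPM of each Wnt ligand (vertical axes, linear from 0, with lower error bars ending at the axis) in the 18 libraries by group (horizontal axes); each point is 1 library, and the dash with bars is the mean ± SD. The 3 day 7 injured libraries lie above all others for Wnt16 (7.08 to 8.81 CPM), Wnt9a (13.1 to 14.7 CPM) and Wnt5a (13.8 to 18.8 CPM), and library 13 is the high contralateral point for Wnt5b and Wnt11.

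The other 6 ligands did not pass the test against naïve cartilage. Wnt4, a ligand of the joint and of early chondrocytes, lies at chr4:137277489-137299726 on the plus strand. It averaged 8.16 CPM ± 1.16 (SD, n = 6) in naïve and 8.08 CPM ± 0.737 (SD, n = 3) in day 7 injured cartilage, with a log2 fold change of 0.01 (SE 0.13, FDR = 0.9778). Its day 7 contralateral libraries held 9.35, 10.5 and 10.1 CPM, all above the 8.22, 7.29 and 8.74 CPM of the injured libraries. That difference did not pass the test either (log2 fold change -0.30, SE 0.15, FDR = 0.1688; without library 13, -0.32, FDR = 0.1781), and 14.3% of all tested genes had every injured library below every contralateral library.

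Wnt2b (chr3:104945272-104961921, minus strand), a ligand that can act through beta-catenin, was at 2.50, 2.47 and 3.15 CPM in day 7 injured libraries. Naïve libraries ranged from 1.48 to 2.72 CPM with a median of 1.96, and the day 7 contralateral libraries gave 1.48, 1.92 and 1.82 CPM. The injured libraries overlapped with the naïve and lay above the contralateral ones, with log2 fold changes of 0.45 (SE 0.20, FDR = 0.1008) and 0.62 (SE 0.23, FDR = 0.0737), respectively. Without library 13 the latter was 0.56 (FDR = 0.1498). In TPM the injured (0.293 to 0.472) and contralateral libraries (0.0915 to 0.41) overlapped. Wnt11 (chr7:98835112-98855195, plus strand), a ligand of cell polarity and migration, averaged 2.54 CPM ± 0.595 (SD, n = 6) in naïve and 3.4 CPM ± 0.597 (SD, n = 3) in day 7 injured cartilage (log2 fold change 0.45, SE 0.22, FDR = 0.1344). In the day 7 contralateral group it was at 5.14 CPM in library 13 and at 2.32 and 2.33 CPM in the others. In TPM library 13 (1.03) lay between the others (1.47 and 0.9). The log2 fold change of injured over contralateral cartilage was 0.10 (FDR = 0.8672) with library 13 and 0.57 (FDR = 0.1879) without it. Exons of Wnt11 share 364 of 4137 bases with the opposite-strand gene Gm8398. Wnt10b (chr15:98770712-98778150, minus strand), a beta-catenin ligand that favours bone over fat formation, was even across the groups. Its means ranged from 1.72 CPM ± 0.694 (SD, n = 3) in day 1 contralateral to 2.31 CPM ± 0.622 (SD, n = 3) in day 1 injured knees, and its log2 fold change at day 7 against naïve was 0.03 (SE 0.25, FDR = 0.9325).

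Wnt10a and Wnt2 were near the detection floor. Wnt10a (chr1:74791516-74804179, plus strand), a beta-catenin ligand of skin and teeth, had between 2 and 29 estimated counts per library, and 2 libraries were at or under 3 counts. Both of these were injured libraries at day 7, where its level was 0.681, 0.127 and 0.139 CPM. Naïve libraries ranged from 0.455 to 0.663 CPM. The log2 fold change was -0.72 (SE 0.46, FDR = 0.2488), and without day 7 injured library 16 it was -1.99 and passed the test (FDR = 0.007452), so that library decided the call. Wnt2 (chr6:17988940-18030585, minus strand), a beta-catenin ligand known from lung and vessels, had between 1 and 35 estimated counts, and 5 libraries were at or under 3. Values ranged from 0.0663 to 0.875 CPM in naïve libraries and were 0.409, 0.444 and 0.370 CPM in day 7 injured libraries, within that range. The remaining 8 ligands were above the floor in every library. Of the mouse Wnt genes outside this group, Wnt6 and Wnt7b passed the filter on low counts and did not pass the test (FDR = 0.7659 and FDR = 0.26 against naïve). The 7 others, Wnt1, Wnt3, Wnt3a, Wnt7a, Wnt8a, Wnt8b and Wnt9b, did not pass the filter, and of these Wnt3a and Wnt7a were at or under 3 counts in all 18 libraries.

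Against the contralateral knees of the same day, 3 of the 10 ligands were higher (Wnt16, Wnt9a and Wnt5a) and none was lower, with a background of 9.33% of 21262 genes higher and 3.23% lower (1984 and 686 genes, or 1671 and 1357 with upper-quartile scaling). Without library 13 the same 3 ligands were higher, and 2030 genes were higher and 434 lower of 21808 tested. Non-overlapping ranges in CPM with all injured libraries above were found for 5 ligands, the called 3 and also Wnt2 and Wnt2b, and for 18.6% of all tested genes. With only the other two contralateral libraries, Wnt5b and Wnt11 joined them, making 7 ligands beside 26% of all tested genes, and Wnt4 was the 1 ligand entirely below, beside 24.3%. Relative to day 1 injured cartilage, 4 ligands were higher, with log2 fold changes of 2.69 for Wnt16 (SE 0.31, FDR = 2.399e-05), 1.90 for Wnt9a (SE 0.34, FDR = 0.0009479), 0.88 for Wnt5b (SE 0.16, FDR = 0.001365) and 0.88 for Wnt5a (SE 0.17, FDR = 0.002178). None was lower, and the background was 9.04% higher and 6.38% lower (1910 and 1347 genes, or 1280 and 2564 with upper-quartile scaling). With an offset for average transcript length, Wnt5a no longer passed in this comparison (log2 fold change 0.73, FDR = 0.0904; FDR from 0.0001073 to 0.0904 over the alternatives other than omitted libraries). Wnt5b kept its call there under all alternatives (FDR up to 0.01853). On the TPM scale, which was not tested and not scaled by TMM, the day 1 and day 7 injured libraries did not show a rise of these 2 genes, with 1.5 TPM ± 0.372 and 1.5 TPM ± 0.181 for Wnt5b and 1.68 TPM ± 0.546 and 1.52 TPM ± 0.46 for Wnt5a (SD, n = 3 each). For Wnt16 they held 0.619 TPM ± 0.325 and 2.2 TPM ± 0.132, and for Wnt9a 0.912 TPM ± 0.538 and 1.8 TPM ± 0.315. These comparisons share the day 7 injured libraries.

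**Figure D2:**
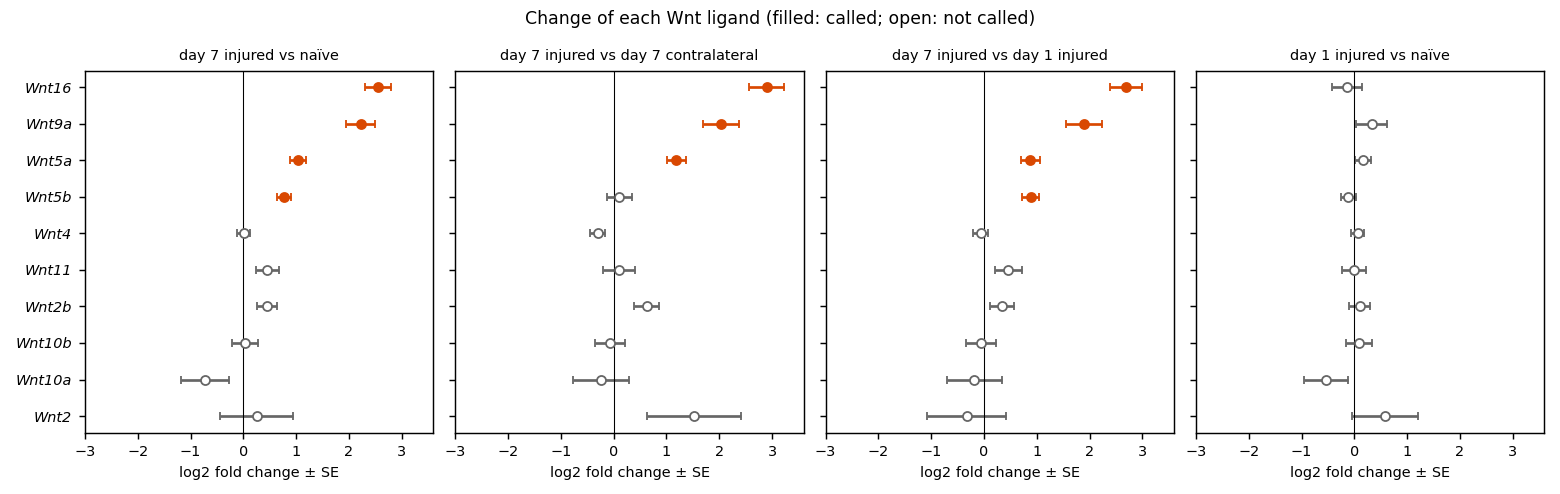
Log2 fold change ± SE (horizontal axes) of each Wnt ligand (vertical axis) in 4 comparisons; filled points passed the test (FDR at most 0.05 and at least 1.5-fold) and open points did not. Wnt16 lies at 2.55, 2.90 and 2.69 in the panels of day 7 injured cartilage, and at -0.14 in day 1 injured against naïve cartilage, where no ligand passed.

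Day 1 gave no called ligand, and no gene at all was called there. Between day 1 injured and naïve cartilage 0% of 21129 genes passed, 4.54% had an unadjusted p under 0.05, and none of the ligands was among those. Between day 1 injured and contralateral knees 0% passed, 6.55% of genes had an unadjusted p under 0.05, and 1 ligand did, namely Wnt9a (log2 fold change 0.83, SE 0.35, FDR = 0.7551). The control groups were also compared with each other. For day 1 contralateral against naïve cartilage 0% of genes passed and 2.62% had an unadjusted p under 0.05, among them Wnt5b (log2 fold change -0.40, SE 0.14, FDR = 0.9998). For day 7 contralateral against naïve cartilage 0% passed and 15.1% had an unadjusted p under 0.05. These included Wnt5b (log2 fold change 0.64, SE 0.20, FDR = 0.2477) and Wnt4 (log2 fold change 0.29, SE 0.12, FDR = 0.2935). Without library 13 the share of genes with an unadjusted p under 0.05 was 5.51%, no gene passed, and the log2 fold changes were 0.23 for Wnt5b (FDR = 0.9212) and 0.33 for Wnt4 (FDR = 0.8902). DESeq2 and limma-voom called no ligand in any of these 4 comparisons. Over all genes DESeq2 called 15, 0, 2 and 8, and limma-voom called 0 in each, in the order given.

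The difference between the injury effects, injured over contralateral at day 7 minus the same at day 1, was tested directly. It passed for Wnt16 (log2 difference 2.88, SE 0.46, FDR = 0.001174) and Wnt5a (log2 difference 0.93, SE 0.25, FDR = 0.04741). The background was 3.53% of genes in this direction and 0.245% in the other (750 and 52 genes, or 512 and 110 with upper-quartile scaling). For Wnt9a the difference was 1.21 (SE 0.48, FDR = 0.2012) and for Wnt5b it was -0.18 (SE 0.34, FDR = 0.8362), so that neither effect was shown to differ between the days. Without library 13 the differences were 3.09 for Wnt16 (FDR = 0.001217), 0.995 for Wnt5a (FDR = 0.03838), 1.44 for Wnt9a (FDR = 0.1156) and 0.26 for Wnt5b (FDR = 0.6292). The Wnt5a result lay at the threshold, and was lost when any of 14 of the 18 libraries was left out (FDR from 0.03023 to 0.1623 over the 18 omissions). It was kept without day 1 injured library 6, naïve library 11, day 7 contralateral library 13 or day 7 injured library 16. It was 0.75 (FDR = 0.4737) with an offset for average transcript length.

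Levels were compared between ligands on the TPM scale, which accounts for transcript length, as each ligand's share of the summed TPM of the 10 ligands in the same library. In naïve cartilage the order was Wnt5b (18.2% ± 3.68), Wnt5a (17% ± 4.25), Wnt4 (16.9% ± 2.81) and Wnt11 (14.9% ± 3.23), followed by Wnt10b, Wnt9a, Wnt16, Wnt2b, Wnt10a and Wnt2 (mean ± SD, n = 6). The first 4 overlapped with their neighbours and so could not be ordered, and the ranges of Wnt11 and Wnt10b were the first that did not overlap. In day 7 injured cartilage Wnt16 took the largest share, 22.4% ± 1.32, followed by Wnt9a with 18.1% ± 1.21 (SD, n = 3). The range of Wnt16 did not overlap with that of Wnt9a, nor that of Wnt9a with Wnt5b (15.2% ± 0.538), whereas Wnt5b and Wnt5a (15.1% ± 3.18) overlapped. Wnt16 was at 7.20% ± 3.27 in naïve cartilage and at 8.36% ± 2.67, 6.32% ± 1.16 and 6.45% ± 2.12 in day 1 contralateral, day 1 injured and day 7 contralateral knees. Wnt4, whose CPM did not pass the test, made up 16.9% ± 2.81 of the ligand TPM in naïve and 8.35% ± 0.752 in day 7 injured cartilage. The summed TPM of the 10 ligands was 6.09 ± 0.481 and 9.9 ± 1.16 in these groups. A larger sum was not particular to day 7. Day 1 injured knees held 9.48 ± 3.34 (6.86 to 13.2), with Wnt4 at 17.2% ± 1.7 and no ligand called. Day 1 and day 7 contralateral knees held 6.6 ± 1.25 and 5.95 ± 1.79. Wnt4 itself was at 1.04 TPM ± 0.224 in naïve and 0.829 TPM ± 0.147 in day 7 injured cartilage, so between these 2 groups its smaller share goes largely with the larger sum. Summed together, Wnt16, Wnt9a and Wnt5a held 32% ± 3.75 and 55.5% ± 2.58, respectively. The share of Wnt5a alone was 17% ± 4.25 and 15.1% ± 3.18, so that the larger sum lay in Wnt16 and Wnt9a. These shares were not tested.

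**Figure D3:**
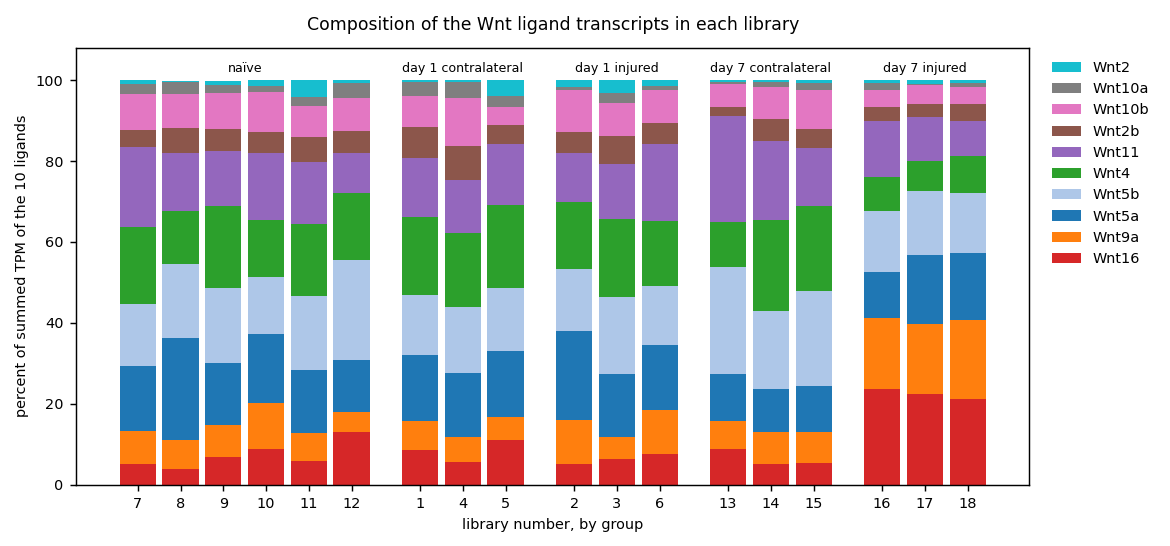
Share of each Wnt ligand in the summed TPM of the 10 ligands (vertical axis, percent) in each of the 18 libraries (horizontal axis, library number by group). Wnt16 and Wnt9a form a larger part of the bar in the day 7 injured libraries (means 22.4% and 18.1%) than in the naïve libraries (7.20% and 7.77%).

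Single transcripts behind these levels were described and not tested. Wnt16-201, a protein-coding transcript of 1663 bases, took 79.7% of the Wnt16 counts. Its TPM was 1.80, 1.98 and 1.80 in the day 7 injured libraries and 0.238, 0.215, 0.369, 0.454, 0.299 and 0.620 in the naïve libraries. Most of the Wnt16 signal at day 7 was thus in the same transcript as in naïve cartilage. Wnt9a-202 took 93.2% of the Wnt9a counts, and differs from Wnt9a-201 by 2 annotated bases in length (3318 and 3320 bases). Wnt5a was split between Wnt5a-201 (65.0%), which begins at the upstream start of the gene, and Wnt5a-202 (29.9%), which begins further downstream. Naïve and day 7 injured cartilage held 0.384 TPM ± 0.0521 and 0.579 TPM ± 0.114 of the first, and 0.326 TPM ± 0.112 and 0.675 TPM ± 0.327 of the second. For Wnt5b the estimates moved between transcripts from library to library. Wnt5b-204 held 100% of the gene's counts in naïve libraries 7 and 10, while Wnt5b-203 held 100% in naïve library 11. Only the sum over transcripts is therefore used for Wnt5b.

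Genes with a pattern over the 5 groups like that of each raised ligand were sought among 15992 genes with a mean of at least 1 CPM, by the root mean square difference of the centred group means of log2 CPM. Closest to Wnt16 were Rtl3 (0.054) and Csrp2 (0.0952), a LIM domain protein. Wnt9a had Gxylt2 (0.0416), a xylosyltransferase, and Fxyd6 (0.0695) as nearest genes. Nearest to Wnt5a were Lrp1 (0.0146), an endocytic receptor, and Dzip1l (0.0164), and nearest to Wnt5b were Htra4 (0.0671), a serine protease, and Col24a1 (0.0759), a fibrillar collagen. These are likenesses of 5 means, each from the same libraries.

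Genes that handle the ligands were measured in the same fit. Porcn, which attaches the lipid to Wnt proteins, and Wls, which carries them to the cell surface, were 2.23-fold and 2.22-fold higher in day 7 injured than in naïve cartilage (FDR = 0.0004806 and FDR = 4.076e-08). Porcn averaged 2.18 CPM ± 0.619 (SD, n = 6) in naïve cartilage. Trabd2b, a protease that inactivates Wnt proteins, was 2.01-fold higher (FDR = 0.0008094), and Notum, which removes the lipid, did not pass the test (log2 fold change -0.29, FDR = 0.4612). Of these 4 genes, 3 were therefore higher and none was lower, beside a background of 10.4% of all tested genes higher and 6.11% lower.

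Receptors and co-receptors showed 11 of 16 genes higher and none lower, beside a background of 10.4% of all tested genes higher and 6.11% lower. Fzd2 rose 5.51-fold (log2 fold change 2.46, SE 0.15), Ror2, the receptor tyrosine kinase used by Wnt5a, 5.49-fold (2.46, SE 0.24), Fzd6 4.02-fold (2.01, SE 0.12) and Fzd1 3.26-fold (1.70, SE 0.22). The others that rose were Fzd3, Fzd7, Fzd8, Lrp6, Ror1, Ryk and Ptk7. The median over all 16 was 1.03, beside -0.04 over all genes tested. With upper-quartile scaling Fzd3 and Fzd7 no longer passed, nor did Fzd7 without naïve library 11 (0.57, under 1.5-fold) or Fzd3 without day 7 injured library 18 (0.59, FDR = 0.05281). The other 5 were Fzd4, Fzd5, Fzd9, Fzd10 and Lrp5, with log2 fold changes between -0.19 and 0.67, and Lrp5 missed on the size of its change (0.30, FDR = 0.04084). Of the R-spondin axis, which keeps Frizzled receptors on the cell surface, Rspo2 (log2 fold change 1.68, FDR = 0.0004917) and its receptor Lgr5 (0.98, FDR = 0.005247) rose. Rnf43, the ligase that removes Frizzled receptors, fell by 0.63 on the log2 scale (FDR = 0.01615), but its direction turned with an offset for average transcript length (0.38, FDR = 0.4415). It was also lost without naïve library 8 (FDR = 0.02683, under 1.5-fold) and without day 7 injured library 17 (FDR = 0.07583) or 18 (FDR = 0.06683). The remaining 6 of these 9 genes did not pass.

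Secreted antagonists showed 6 of 10 genes higher and 1 lower, beside a background of 10.4% of all tested genes higher and 6.11% lower. Dkk3, a member of the Dickkopf family, rose 15.3-fold (log2 fold change 3.94, SE 0.21, FDR = 6.111e-09). Sfrp2 and Sfrp1, which bind Wnt ligands outside the cell, rose 8.82-fold (3.14, SE 0.27) and 6.83-fold (2.77, SE 0.30). Dkk2 was 2.10-fold higher (FDR = 0.03053) and passed the test in 9 of the 15 fits with a library left out, and Sfrp4 and Frzb were the other members that rose. Frzb did not pass without day 7 injured library 18 (0.63, FDR = 0.1102), and neither Dkk2 nor Frzb passed with upper-quartile scaling. Sost, the osteocyte inhibitor of Lrp5 and Lrp6, fell by 0.95 on the log2 scale (SE 0.22, FDR = 0.004878).

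In the beta-catenin core inside the cell 1 of 10 genes was called higher, about the background share of 10.4%. This was Tcf7l1 (log2 fold change 0.60, FDR = 0.001204), close to the limit of 1.5-fold. It was not past that limit without day 7 injured library 18 (0.45, FDR = 0.01608). With no limit on the fold, by which 3960 of all 21129 genes were higher and 2331 lower, 6 of the 10 were higher and none lower, the others being Ctnnb1, which encodes beta-catenin itself (1.41-fold, FDR = 0.0001207), Dvl3 (1.49-fold, FDR = 0.0008446), Apc, Csnk1a1 and Gsk3b. Of the feedback and target genes of beta-catenin, 2 of 8 were higher, the Dishevelled inhibitors Nkd2 (1.18, FDR = 9.861e-05) and Nkd1 (0.90, FDR = 0.009792). Nkd1 did not pass without day 7 injured library 18 (0.65, FDR = 0.09746). Axin2, the most used readout of beta-catenin activity, had a log2 fold change of 0.43 (SE 0.17, FDR = 0.07121), and Lef1 had 0.00 (SE 0.18, FDR = 0.9955). Of the planar cell polarity genes, Prickle2 (1.06), Prickle1 (1.05) and Daam2 (0.60) rose and Celsr2 fell by 1.04 on the log2 scale, as 3 higher and 1 lower of 9. Daam2 fell under 1.5-fold without naïve library 11 (0.54) or 12 (0.56) and without day 7 injured library 17 (0.58) or 18 (0.53). Over the lists of receptors, ligand handling, R-spondins, antagonists, core, feedback and polarity genes, 28 of 66 tested genes were higher and 3 lower than in naïve cartilage, beside the backgrounds of 10.4% and 6.11%. With no limit on the fold they were 37 and 4, where 3960 and 2331 of all 21129 genes were higher and lower. Against contralateral cartilage 28 were higher and 4 lower, beside 9.33% and 3.23% of all genes. Without library 13 the counts were again 28 and 4, with Fzd7, Fzd9 and Frzb called in place of Lgr5, Dkk2 and Dvl3. When day 1 was subtracted from day 7, the log2 effect of injury differed in the positive direction for 15 genes and in the negative for 2, beside 3.53% and 0.245% of all genes. The negative ones were Sost, at -1.54 at day 7 and 0.31 at day 1, and Celsr3, a polarity cadherin, at -0.83 and 0.10. Neither of them passed without library 13 (FDR = 0.07746 and FDR = 0.05465), where 15 were positive and none negative.

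**Figure D4:**
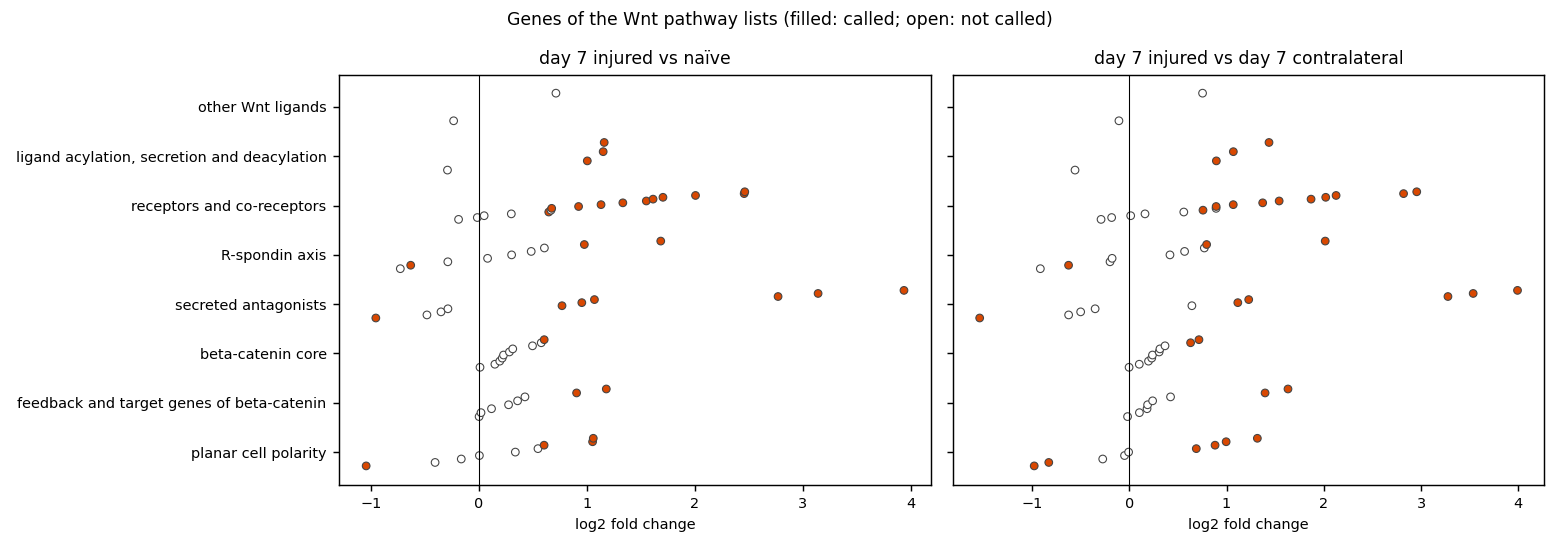
Log2 fold change (horizontal axes) of the tested genes of each Wnt pathway list (vertical axis) in day 7 injured against naïve (left) and day 7 contralateral cartilage (right); filled points passed the test and open points did not. The farthest point to the right is Dkk3 in both panels (3.94 and 3.99). The receptor list has 11 and 10 filled points, all to the right of 0, where 10.4% and 9.33% of all tested genes were higher.

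Some markers of other cell types also differed between these groups. For the counts of called markers below, the background was 10.4% of all tested genes higher and 6.11% lower. Of 8 markers of fibroblasts of synovium and connective tissue, 6 were higher in day 7 injured than in naïve cartilage. Their summed level ranged from 10537 to 18235 CPM in naïve libraries and from 69406 to 79779 CPM in day 7 injured libraries, and was 56453 CPM in contralateral library 13 against 16905 and 23244 CPM in the other contralateral libraries of that day. Library 13 held 1.4 CPM of Wnt16, 4.36 CPM of Wnt9a and 7.40 CPM of Wnt5a, values within the naïve range, and 11.2 CPM of Wnt5b and 5.14 CPM of Wnt11, values above it. In TPM, Wnt5b (1.05), Wnt11 (1.03) and Wnt16 (0.354) lay within the naïve range, and Wnt9a (0.27) and Wnt5a (0.468) below it. Col1a1 was the most abundant of the fibroblast markers, and none of the 8 was at 0. Across the day 7 contralateral libraries it averaged 29822 CPM, beside 32200 CPM for the sum. In that group it was 2.40-fold the naïve level (FDR = 0.2477, edgeR). The other fibroblast markers lay between 0.479-fold (Pdpn) and 1.21-fold (Pi16) there, so the sum mostly follows Col1a1. Endothelial markers were higher for 4 of 6 genes, with sums of 470 to 554 CPM in naïve and 587 to 653 CPM in day 7 injured libraries, and Vwf, the most abundant, averaged 255 and 195 CPM. Chondrocyte markers were higher for 3 of 8 (Acan, Comp and Sox9), and Col2a1, the most abundant, averaged 3240 and 3800 CPM in the same groups. Erythroid markers were lower for 4 of 6, from 28073 to 38238 CPM against 15372 to 25319 CPM, led by Hbb-bs. For osteoblasts and osteocytes 1 of 8 was higher (Ibsp, also the most abundant) and 1 lower (Mepe). Beside the background of 10.4% and 6.11%, these single calls are not read as a change of the list. Macrophage markers summed to 515 to 693 CPM in naïve and 742 to 835 CPM in day 7 injured libraries, without overlap, with Csf1r the most abundant. None of these 7 reached 1.5-fold at FDR 0.05, and with no limit on the fold Adgre1, Csf1r and C1qb (1.49-fold, FDR = 0.007184) were higher and Cd163 was lower (log2 fold change -0.50, FDR = 0.001641). Skeletal muscle markers summed to 2684 to 8885 CPM and 1897 to 4102 CPM, led by Myh4, and none of the 6 passed the test with or without the limit on the fold. The part of these cell types in the changes of the Wnt ligands was not tested.

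**Figure D5:**
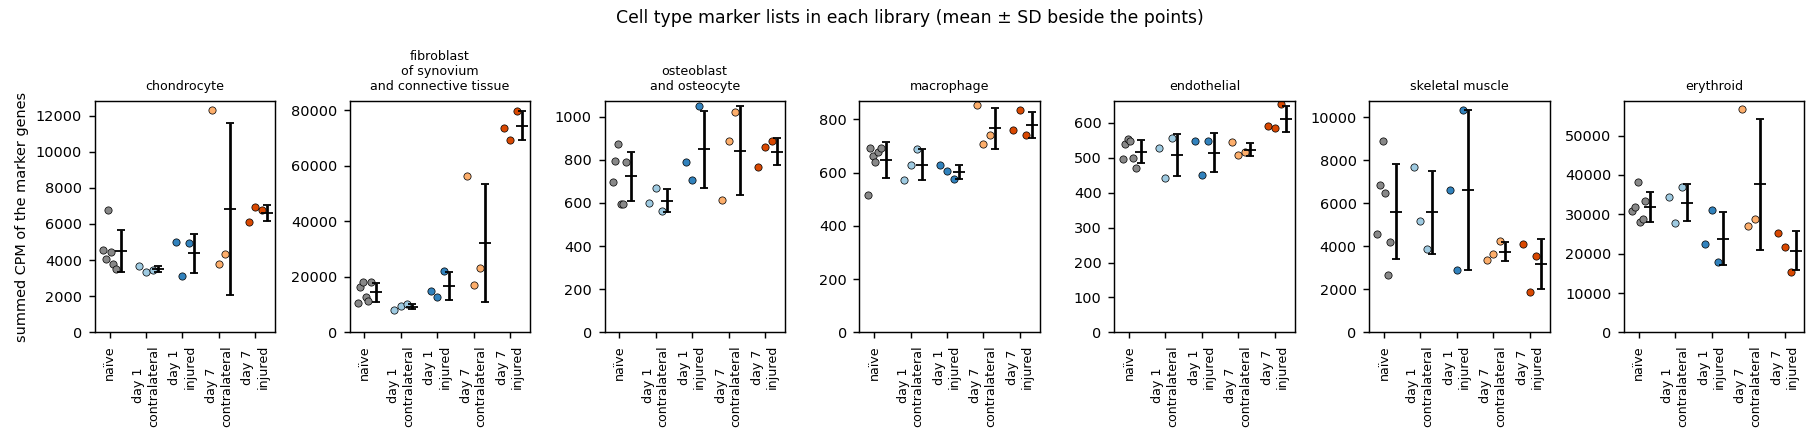
Summed CPM of 7 lists of cell type markers (vertical axes, linear from 0) in the 18 libraries by group (horizontal axes); each point is 1 library and the dash with bars is the mean ± SD. Fibroblast markers lie at 69406 to 79779 CPM in day 7 injured libraries and at 10537 to 18235 CPM in naïve libraries. Contralateral library 13 is the high point of its group for the chondrocyte, fibroblast and erythroid sums. It is also the highest for macrophage (853 CPM) and endothelial markers (545 CPM). For osteoblast and osteocyte (615 CPM) and skeletal muscle markers (3345 CPM) it is the lowest. In that group Col2a1 holds most of the chondrocyte sum (means 5438 and 6816 CPM). Col1a1 holds most of the fibroblast sum (29822 and 32200 CPM).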

How the data were processed

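Transcript tables as deposited held estimated counts and TPM for 137436 transcripts per library. According to the methods of the study, the authors trimmed reads with Trimmomatic 0.39 and quantified them with Kallisto 0.46.1 on the GRCm38 transcriptome, which gave both the estimated counts and the TPM values. The labels name the human build GRCh38 instead, and 98.3% of the transcript identifiers matched mouse GENCODE vM21. The study left 1 library out, which its text does not name, and no library was left out here.

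Estimated counts were summed per gene and rounded. Genes passing filterByExpr were tested with edgeR 4.0.16 (quasi-likelihood, TMM; R 4.3.3), with Benjamini-Hochberg FDR at most 0.05 and at least 1.5-fold as the call. Comparisons without day 7 contralateral knees were fitted on 15 libraries (21129 genes) and the others on 18 (21262 genes). The standard error is the log2 fold change over the root of F. TPM, which corrects for length, served for shares between ligands and for untested levels of ligands and single transcripts. DESeq2 1.42.0, limma-voom (limma 3.58.1), RLE and upper-quartile scaling, other thresholds, no filter, a length offset, other sets of libraries and omission of each library were alternatives. All 10 ligands are named, as are pathway genes called in day 7 injured against naïve cartilage. The ligands and the lists of pathway and marker genes were chosen with earlier results of these data known. Depth limits Wnt2 and Wnt10a.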

Additional observations from a re-analysis of the deposited data

Results flagged for a closer look

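Wnt2 in naïve library 11 was at 0.875 CPM, far from the nearest of the other naïve libraries at 0.35 CPM. It was the only such value among the 10 ligands examined in the naïve group, and chance marks about 1 in 20 groups. Wnt2 was near the detection floor.

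The effect of injury differed between day 7 and day 1 for Wnt16, by 2.88 on the log2 scale (2.8791, FDR = 0.001174), and for Wnt5a, by 0.93 (0.9274, FDR = 0.04741), in a direct test of the difference with edgeR. The Wnt5a difference lay at the threshold and was lost when any of 14 of the 18 libraries was left out and under 6 other alternatives, including RLE scaling and the length offset. In CPM all 3 day 7 injured libraries were above all 3 contralateral libraries of that day for both genes, as for 18.6% of all tested genes. This arrangement concerns day 7 alone and not the difference between days.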

How the results depend on the processing

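No paired analysis was possible here because the labels do not give the mice behind each library. By its methods, the study itself took shared mouse pools into account, with the duplicateCorrelation method of limma. The 4 ligands called in day 7 injured against naïve cartilage passed under every alternative and every omitted library, and Wnt10a joined them without day 7 injured library 16. Log2 fold changes lay between 2.38 and 2.72 for Wnt16, 2.05 and 2.39 for Wnt9a, 0.85 and 1.13 for Wnt5a, and 0.60 and 0.84 for Wnt5b. Against contralateral knees the 3 called ligands passed throughout, and Wnt5b ranged from -0.14 to 0.54 over omitted libraries. For the difference between the days, 1 ligand (Wnt16) passed in place of 2 with FDR at most 0.01, RLE scaling, upper-quartile scaling, no filter, the length offset and only the groups compared, and between 1 and 2 passed over omitted libraries. The cause was not tested. Wnt5a passed there with DESeq2 (FDR = 0.01751) and limma-voom (FDR = 0.04423).

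Counts over all genes moved more. Against naïve cartilage they were 3960 higher and 2331 lower with no limit on the fold, 1909 and 472 at FDR 0.01, and 1836 and 797 without day 7 injured library 18, beside 2207 and 1291. Against contralateral knees the 686 lower genes became 1310, 251, 452 (limma-voom), 279 (only the groups compared), 434 (without library 13), 1058 (without 15), 426 (without 17) and 279 (without 18). Against day 1 injured knees the 1910 and 1347 became 3427 and 1733 with no fold limit, 1513 and 382 at FDR 0.01, and 1771 and 884 without library 6. There 849 were lower without library 17 and 891 without library 18. For the difference between days the 750 and 52 became 341 and 3 at FDR 0.01, 979 and 160 with DESeq2, 648 and 25 with no filter, 516 and 27 with the length offset and 521 and 21 with only the groups compared. Without single libraries they were 662 and 30 (library 1), 483 and 13 (2), 618 and 91 (3), 702 and 33 (4), 447 and 18 (5), 635 and 24 (6), 826 and 85 (16), 546 and 24 (17) and 393 and 9 (18). Alternatives for the pathway and marker lists, and the ranges and unadjusted p without library 13, were added after seeing the data.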
